A study of Gallus gallus with 18 samples.

Results

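In laying hens the eggshell is mineralised in the uterus, or shell gland, a segment of the oviduct. RNA sequencing libraries were made from uterus samples of Hy-Line Brown layers aged 42 weeks, sorted by the strength of the shells they laid (high or low) and by the period of calcification (initiation, growth or termination), with 3 libraries in each of the 6 groups. The genes described here are 150 of the 20866 loci in the count table, chosen because their level was lowest in the growth period. The choice used the CPM (counts scaled to the library total) of high and low strength initiation, low strength termination, and high and low strength growth. High strength termination took no part in it. The labels number the libraries of a group without tying each one to a separate hen, so the spread between libraries may in part be technical.

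Calcification starts with the first crystals forming on the outer shell membrane at initiation. Growth is the period of rapid, linear mineral deposition, when the gland moves calcium and bicarbonate into the uterine fluid. Termination is the arrest of deposition before the egg is laid. The count table lists Ensembl identifiers and no gene names, and the gene table of chicken used here (RefSeq, assembly GRCg7b) had 0 entries with an Ensembl identifier, so 0 of the 150 genes could be named and no function, protein or promoter is given for any of them. For the same reason the markers of the uterus and of other cell types were not examined. In bulk tissue, fewer cells of a type and less RNA per cell cannot be told apart.

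The score that chose the genes was the log2 ratio of the lowest mean among high initiation, low initiation and low termination to the higher of both growth means, each with 1 CPM added. Over the 150 genes the score ran from 1.14 to 4.12 with a median of 1.32, a ratio of 2.50. A ratio of at least 3 was reached by 38 genes, of at least 4 by 11 and of at least 8 by 1. The ranking had no step at the threshold: the genes ranked 149 and 150 scored 1.14, and those ranked 151 and 152 scored 1.13. The 150 genes are thus the upper end of a continuous ranking of 17057 Ensembl loci with a median under 1000 CPM.

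**Figure D1:**
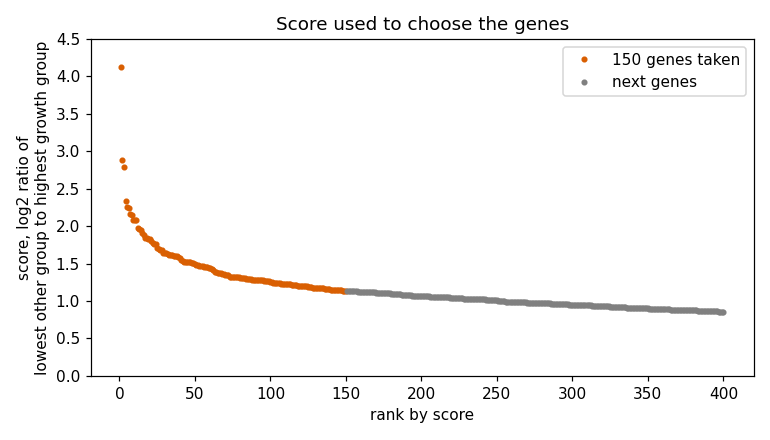
Score of the 400 highest-ranked genes (y axis, log2 ratio of the lowest of the 3 other groups used to the higher growth group) against their rank (x axis). The 150 genes taken end at a score of 1.14 on a flat stretch of the curve, and only the first gene lies above 4.

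The libraries held between 13322102 and 16125109 counts, and 16110 loci stood above 1 CPM in at least 3 libraries and were tested, among them all 150 genes. A count of 3 in a library corresponds to 0.186 to 0.225 CPM. The genes were of moderate abundance, with a median of 28.6 CPM over the 18 libraries against 18.7 CPM for the genes tested. Of the 150, 28 averaged at least 100 CPM, 96 lay between 10 and 100 CPM and 26 under 10 CPM. Only 5 had no counts in at least 1 library.

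Group medians describe the shape that the choice imposed. The median gene stood at 37.9 CPM in high initiation, 32.1 CPM in low initiation and 40.0 CPM in low termination, and at 8.91 CPM during growth in the high and 9.72 CPM in the low strength group. All 6 growth libraries lay below all 9 libraries of the other 3 groups for 145 of the 150 genes, an arrangement found in 10.7% of the genes tested; these values chose the genes, so nothing is read from this count. Together the 150 genes took 1.29% to 2.45% of all counts in the 9 libraries of initiation and low termination, and 0.352% to 0.610% in the 6 growth libraries.

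**Figure D2:**
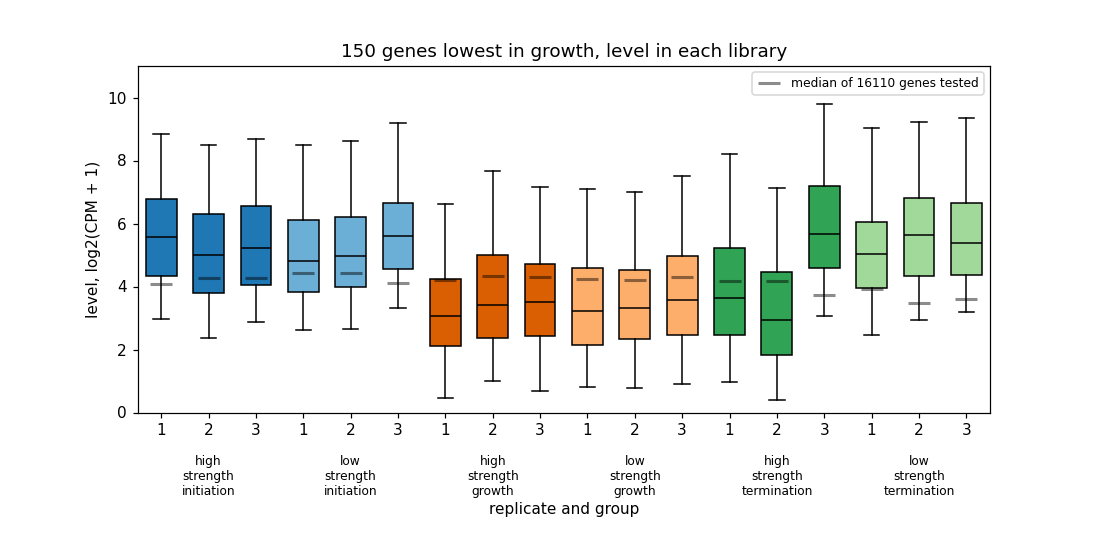
Level of the 150 genes (y axis, log2 of CPM + 1) in each of the 18 libraries (x axis). Boxes span the quartiles with the median as a line, whiskers run from the 5th to the 95th percentile, and grey marks give the median of the 16110 genes tested. High strength termination replicates 1 and 2 (medians 11.4 and 6.65 CPM) lie at the height of the growth libraries, and replicate 3 (median 49.3 CPM) at the height of initiation and low termination.

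The first gene by score, ENSGALG00000023818, was nearly silent in growth. At initiation its level was 236, 9.68 and 62.5 CPM in the high strength libraries and 6.72, 26.6 and 48.5 CPM in the low strength ones, and low termination had 33.0, 128 and 56.0 CPM. In growth it had 0.0727, 0.437 and 0.623 CPM in the high strength libraries and 1.12, 0.456 and 0.313 CPM in the low strength ones. These values rest on few counts, and that of high growth replicate 1 lay under the 0.218 CPM of 3 counts. The growth libraries did not overlap with the others, while within initiation its level varied widely from library to library. In high termination it stood at 0.409, 0.188 and 17.1 CPM, of which 0.188 CPM is 3 counts in replicate 2. Replicates 1 and 2 were thus within the growth range, near the counting floor, and replicate 3 was above that range. It was also the gene with the lowest mean ratio of high termination to the other groups outside growth, at −4.46 on the log2 scale.

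The second gene by score, ENSGALG00000028396, followed the same course with less contrast. Its means were 38.3 ± 20.9 CPM in high initiation, 33.4 ± 11.5 CPM in low initiation and 44.8 ± 18.5 CPM in low termination (SD, n = 3). In growth they were 3.67 ± 1.12 CPM in the high and 3.67 ± 3.33 CPM in the low strength group. The high termination libraries had 3.06, 0.690 and 50.0 CPM, which put replicate 1 in the growth range, replicate 2 below all 6 growth libraries and replicate 3 in the range of initiation.

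The most abundant of the 150 genes was ENSGALG00000018386, at 1448 CPM over all libraries. Its means were 2265 ± 670 CPM in high initiation, 1482 ± 1043 CPM in low initiation, and 2458 ± 808 CPM in low termination, with growth means of 578 ± 127 CPM (high strength) and 616 ± 46.3 CPM (low strength; SD, n = 3). Low initiation replicate 1, at 633 CPM, was inside the growth range of 450 to 705 CPM, so this gene was one of the 5 whose libraries overlapped. The next most abundant, ENSGALG00000004860, ranked 10 by score, had 1389 ± 92.8 CPM in high initiation, 429 ± 234 CPM in low initiation and 1465 ± 285 CPM in low termination (SD, n = 3). Its growth means were 101 ± 38.8 and 86.9 ± 3.57 CPM (SD, n = 3), and no growth library reached the lowest of the others.

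High strength termination, which the choice did not use, did not behave as a single group. Replicate 3 stood above the growth mean by at least 2-fold for 147 of the 150 genes, where 12.1% of all genes tested did so. Replicate 1 did so for 24 of the 150, against 4.39% of the genes tested, and replicate 2 for 11, against 2.66%. The median log2 ratio to the growth mean was −0.0080 in replicate 1, −0.28 in replicate 2 and 2.03 in replicate 3, where over all genes tested it was −0.08, −0.08 and −0.30. In comparison, the medians of the 9 libraries of initiation and low termination ran from 1.35 to 2.01 on this scale. No p is given, since the reference growth means entered the choice and each value is 1 library.

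The high termination libraries also differed from each other, a comparison that rests on no library of the choice. Replicate 3 exceeded replicate 1 by at least 2-fold for 125 genes, against 12.6% of the genes tested, and fell below it by as much for 2, against 25.6%. Over replicate 2 it was at least 2-fold higher for 148 genes, against 14.6% of the genes tested. Replicate 1 was at least 2-fold above replicate 2 for 48 genes, against 3.40%, and at least 2-fold below it for 0, against 1.85%. The median log2 ratio over the 150 genes was 1.92 for replicate 3 over replicate 1, 2.33 for replicate 3 over replicate 2 and 0.34 for replicate 1 over replicate 2. The order from replicate 2, the lowest, through replicate 1 to replicate 3 was shared by 112 of the 150 genes and by 20.1% of the genes tested. Accordingly, the SD of log2(CPM + 1) within high termination had a median of 1.30 over the 150 genes, against 0.256 to 0.400 in the other 5 groups, and 0.500 over all genes tested.

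**Figure D3:**
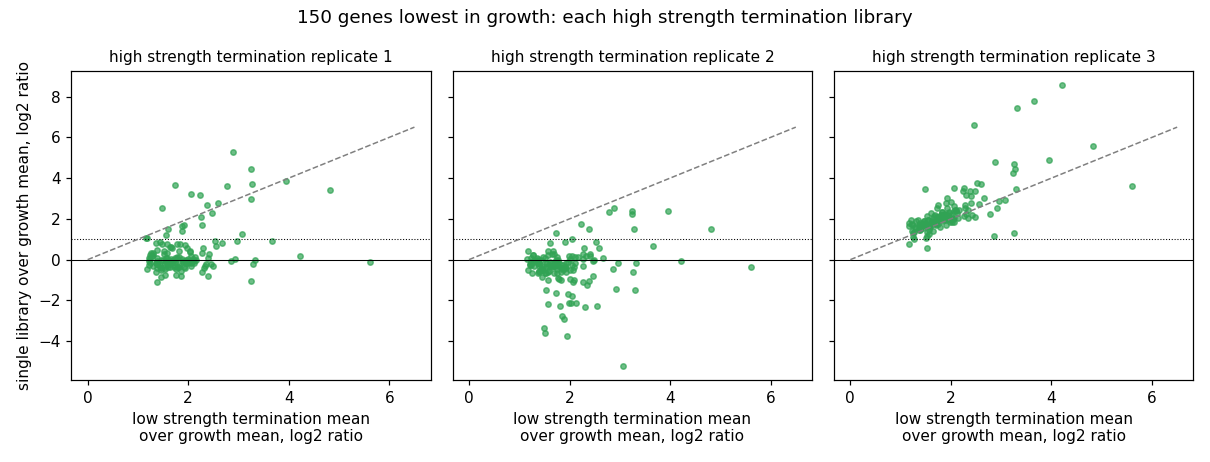
For each of the 150 genes, the log2 ratio of 1 high strength termination library to the growth mean (y axis, CPM + 1) against that of the low strength termination mean (x axis), with a panel per library. The solid line marks the growth level, the dotted line a 2-fold rise and the dashed line equal levels in both termination values. The points of replicates 1 and 2 gather at the solid line (medians −0.0080 and −0.28) and those of replicate 3 near the dashed line (median 2.03).

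At the extremes, replicate 3 was the highest of all 18 libraries for 49 of the 150 genes, against 6.36% of the genes tested. Replicate 2 was the lowest of all 18 for 48, against 7.34%. These 18 include the libraries that chose the genes, with growth set low and the others high. The shares of the genes tested are therefore not a like reference, and nothing is read from both counts. Within its own group, replicate 3 was the highest for 147 of the 150, against 37.1% of the genes tested. Of the 150 genes, 25 stood in replicate 2 at least 2-fold below the growth mean, against 4.21% of the genes tested; in replicate 1 there were 2 such genes, against 5.14%. The deepest drop was that of the gene ranked 117, which had 2.57 CPM in replicate 2 against 52.9 to 300.0 CPM in the growth libraries, 318 CPM in replicate 1 and 998 CPM in replicate 3. It is singled out here after its values were seen.

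A minority of the genes stood at least 2-fold above growth in high termination replicate 1 as well. The 11 genes that were at least 2-fold above growth in replicate 2 were all among the 24 that were so in replicate 1. These 24 genes summed to 6350 CPM in replicate 1, beside 883 and 972 CPM in the means of high and low growth and 6116 CPM in that of low termination. The other 126 genes summed to 3816 CPM in replicate 1, beside 3687 CPM in the mean of high growth and 14608 CPM in that of low termination. The gene with the highest mean ratio of high termination to the other groups outside growth was ENSGALG00000016394, at 1.68 on the log2 scale. In high termination its level was 1022, 152 and 737 CPM, and in low termination 245, 105 and 237 CPM. Its initiation means were 190 ± 39.3 CPM in the high and 66.8 ± 16.4 CPM in the low strength group, and its growth means 23.7 ± 6.57 and 27.7 ± 4.05 CPM (SD, n = 3). All 3 high termination libraries lay above the 6 growth libraries, and replicate 1 was the highest of the 18. The 24 genes were picked by these values, so the sums are a description.

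Within the other groups, too, most of the genes shared an order of the libraries. These libraries set the means that chose the genes, so the counts are a description and nothing is read from them. Low initiation replicate 3 was the highest of its group for 133 of the 150 genes, against 28.4% of the genes tested, and high initiation replicate 1 for 106, against 27.8%. Low termination replicate 1 was the lowest of its group for 116, against 23.9%. In high growth, replicate 1 was the lowest for 111, against 47.2%. These orders held for the larger part of the 150 genes with CPM scaled by trimmed mean of M values (TMM) as well, for 141, 121, 127 and 101 genes, beside 45.1%, 40.4%, 42.1% and 35.0% of the genes tested. The summed level of the 150 genes spanned 12892, 14617 and 21315 CPM in low initiation replicates 1, 2 and 3, and 15848, 24536 and 21790 CPM in low termination. In high termination the sums were 10166, 4902 and 28191 CPM.

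The share of G and C among sequenced bases differed between these libraries. It was 49.2%, 49.3% and 50.6% in low initiation replicates 1, 2 and 3, and 50.6%, 53.1% and 52.0% in low termination. In high termination it was 49.3%, 50.0% and 51.8%, so that in each of these 3 groups the library with the highest GC share had the highest sum of the 150 genes; replicate 2 of high termination had a higher GC share than replicate 1 and a lower sum. In high initiation, too, the library with the highest GC share, replicate 1, had the highest sum. The shares were 50.09%, 49.85% and 49.87% and the sums 21362, 14944 and 19232 CPM. In growth it was the library with the lowest GC share that had the highest sum, high growth replicate 2 with 49.4% and 5265 CPM and low growth replicate 3 with 49.7% and 6098 CPM. The TMM factor was 0.678 to 0.905 in low termination and 0.824 in high termination replicate 3, against at least 1 and up to 1.23 in the other 14 libraries. The part of base composition or of these scaling differences in the levels of the 150 genes was not tested. Bases at quality 30 or above made up 91.55%, 91.65% and 91.61% in high initiation and 95.15%, 94.72% and 94.26% in low initiation. At growth and at termination the strength groups overlapped in this share. At initiation it cannot be told apart from shell strength, and its part in the levels was not tested. The labels name no sequencing batch.

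Whether hens laying strong and weak shells differed in these genes at initiation was tested with edgeR's quasi-likelihood test in a fit to all 18 libraries, with Benjamini-Hochberg adjustment over all genes tested. Both initiation means entered the choice, which asked that the lower of them be high. The effect of this on the difference between them was not tested. The count of calls is therefore a description of the chosen genes and not an independent result. At an adjusted p below 0.05, 1 of the 150 genes was higher and 2 were lower in the high strength group, 3 in all, against a background of 7.97% of the genes tested (3.04% higher and 4.93% lower). The median log2 difference, high minus low, was 0.17 over the 150 genes and −0.0016 over the genes tested, with a median standard error of 0.59 per gene. An unadjusted p below 0.05 was found for 11 of the 150 and for 21.5% of the genes tested.

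ENSGALG00000023904, ranked 30 by score, was higher in high strength initiation. It had 203, 306 and 191 CPM in the high and 42.2, 69.3 and 107 CPM in the low strength libraries, without overlap (edgeR adjusted p = 0.0427, log2 difference 1.70 with a standard error of 0.48). Its growth means were 16.2 ± 5.75 CPM in the high and 18.5 ± 3.64 CPM in the low strength group (SD, n = 3). ENSGALG00000028582, ranked 150, was lower in high strength initiation, at 77.8, 83.5 and 83.3 CPM against 277, 238 and 195 CPM, with no overlap (edgeR adjusted p = 0.0136, log2 difference −1.46 with a standard error of 0.34). ENSGALG00000001483, ranked 39, was also lower, at 165, 188 and 215 CPM against 623, 578 and 436 CPM (edgeR adjusted p = 0.0319, log2 difference −1.45 with a standard error of 0.39). The calls of ENSGALG00000023904 and ENSGALG00000001483 were each lost in 5 of 15 alternative settings and that of ENSGALG00000028582 in 3 of 15. These genes were named for their small adjusted p, and the initiation libraries entered the choice, so their calls are a description too.

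These counts rested on the libraries in the fit. Without high termination replicate 3 the test called 15 of the 150 genes at initiation, 5 higher and 10 lower, against 15.4% of the genes tested, and without all of high termination it called 16, 6 higher and 10 lower, against 15.1%. Without high termination replicate 2 the count was 7, against 8.81%. The median standard error over the 150 genes fell from 0.59 to 0.37 without replicate 3. Leaving out single initiation libraries gave 0 genes without high initiation replicate 2, without its replicate 3 and without low initiation replicate 1, where 4.67%, 4.29% and 2.85% of the genes tested were called. It gave 1 gene without high initiation replicate 1 and also without low initiation replicate 2 (5.06% and 3.49% of the genes tested), and 5 without low initiation replicate 3 (7.47%).

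**Figure D4:**
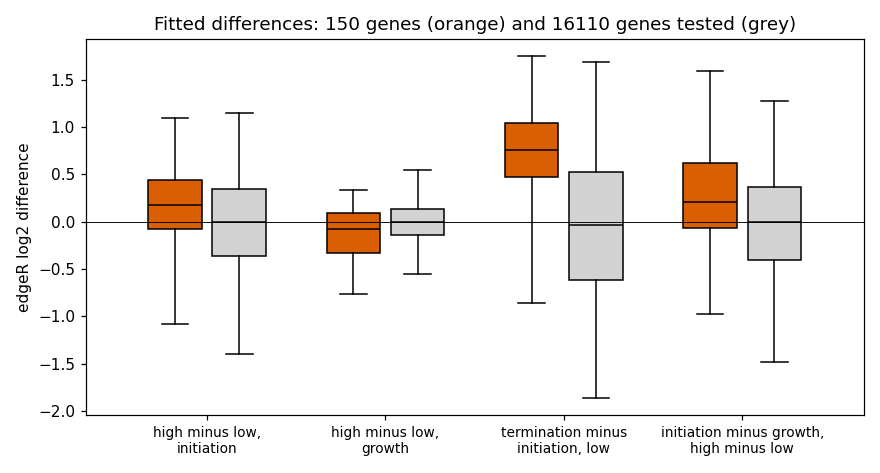
Fitted log2 differences (y axis, edgeR with TMM scaling) of the 150 genes (orange) and of all 16110 genes tested (grey) in 4 comparisons (x axis). Boxes span the quartiles with the median as a line, and whiskers run from the 5th to the 95th percentile. The medians of the 150 genes are 0.17, −0.08, 0.76 and 0.21.

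In growth, the lowest of the periods in the groups used for the choice, the strength groups were compared in the same way. The test called 0 of the 150 genes, against 0.00621% of the genes tested, which is a single gene. Both growth means entered the choice, which asked that the higher of them be low, so nothing is read from this count. The median size of the log2 difference, sign aside, was 0.19 over the 150 genes and 0.13 over the genes tested. Before adjustment, edgeR gave a p below 0.05 to 0 of the 150 and to 374 of the genes tested, which is 2.32%. DESeq2 also called 0 of the 148 to which it gave an adjusted p, against 0.0683% of the genes tested. The log2 differences, high minus low, lay between −1.78 and 1.23 with quartiles of −0.34 and 0.09. With a median standard error of 0.60, differences of 2-fold in single genes were not detectable in this fit. Without high termination replicate 3, where the median standard error was 0.39, the count stayed at 0.

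Low strength termination was next compared with low strength initiation, the periods after and before growth. Here 7 of the 150 genes were higher at termination and 1 was lower (edgeR quasi-likelihood test), against 9.60% and 11.4% of the genes tested. The median log2 difference, termination minus initiation, was 0.76 over the 150 genes and −0.03 over all genes tested. The estimate was above 0 for 132 of the 150 genes and for 48.3% of the genes tested. These values moved with the scaling: with total counts in place of TMM the medians were 0.18 and −0.59, a shift of −0.55 over all genes tested. With total counts 5 of the 150 genes were higher, against 4.64% of the genes tested, and 3 were lower, against 34.8%. Under total-count scaling 11.8% of all calls were rises, against 45.7% with TMM. The choice of the genes was made on CPM without TMM factors and required both low initiation and low termination to be high. The direction over the list is therefore a description. With TMM, the median size of the log2 difference, sign aside, was 0.79 over the 150 genes and 0.57 over the genes tested. The median standard error over the 150 genes was 0.59, in a fit that took in the spread within high termination. The part of that spread in the number of calls was not tested.

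ENSGALG00000016348, ranked 95, rose from 384, 368 and 397 CPM at low initiation to 997, 713 and 974 CPM at low termination (edgeR adjusted p = 0.00459, log2 difference 1.77 with a standard error of 0.38). It passed through 92.5 ± 12.0 CPM in low growth (SD, n = 3), and in high termination it had 753, 500 and 1775 CPM, all above its high initiation libraries of 219, 220 and 255 CPM. ENSGALG00000008206, ranked 21, rose from 7.53, 7.18 and 17.9 CPM to 53.2, 109 and 99.8 CPM (edgeR adjusted p = 0.00675, log2 difference 3.57 with a standard error of 0.82). Both kept the call in all 15 alternative settings tried. The low initiation and low termination libraries also entered the choice, and these genes were named for their small adjusted p, so their calls are a description. ENSGALG00000028582, one of the genes lower in high strength initiation, was lower at termination than at low initiation, at 82.7, 51.7 and 76.9 CPM (edgeR adjusted p = 0.0199, log2 difference −1.20 with a standard error of 0.33), and lost this call in 3 of 15 settings. Both comparisons use the same 3 low initiation libraries, which were its highest.

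Without high termination replicate 3 the fit called 54 of the 150 genes between low initiation and low termination, 52 higher and 2 lower, where 18.5% of the genes tested were higher and 20.9% lower. Without all of high termination it called 56, 54 higher and 2 lower, where 18.2% of the genes tested were higher and 20.3% lower. The fit to both groups alone called 21, of which 19 were higher, where 11.9% of the genes tested were higher and 12.5% lower. Without low initiation replicates 1 and 2 the count was 2 and 4, against 10.2% and 10.95% of the genes tested, and without its replicate 3 it was 13, against 24.4%. Both groups entered the choice, which was made on CPM without TMM factors, while these fits used TMM. The counts and their direction are therefore a description too, and nothing is read from them.

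**Figure D5:**
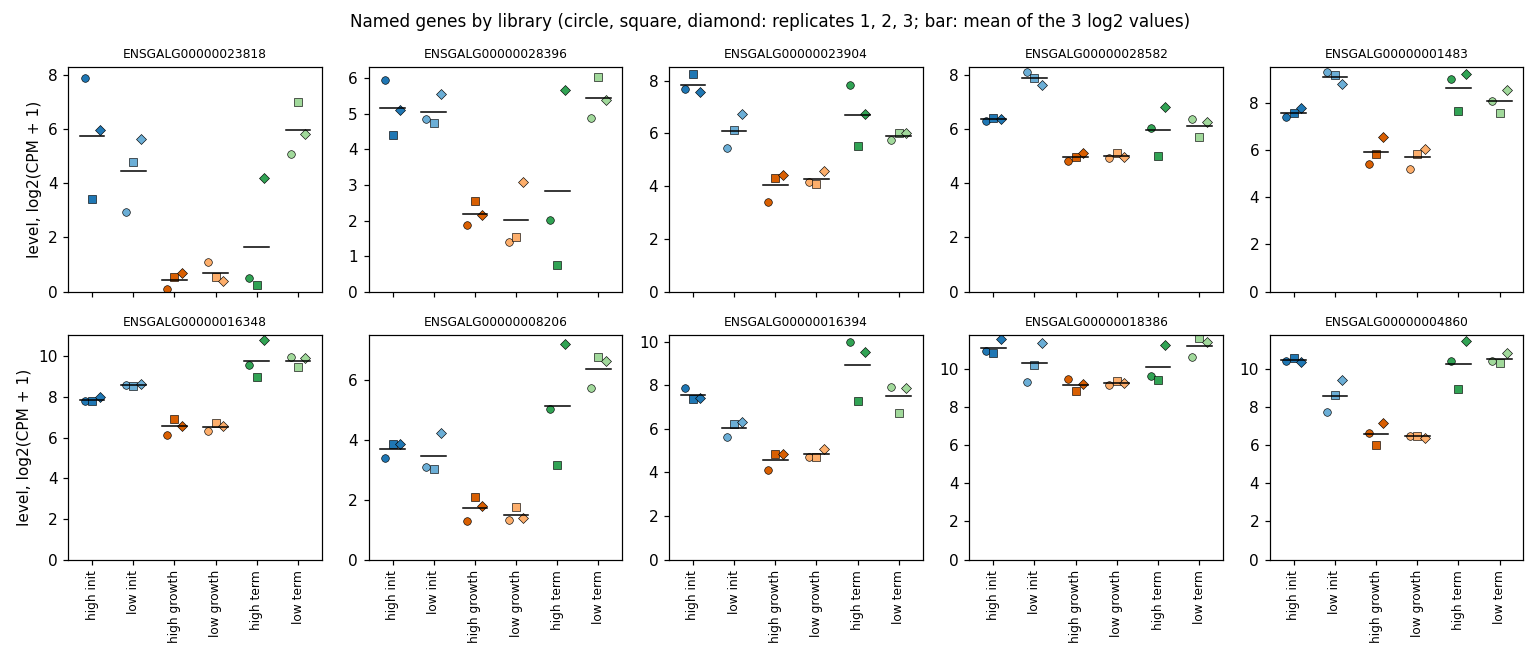
Level (y axis, log2 of CPM + 1, a separate scale in each panel) of the 10 named genes in the 6 groups (x axis). Circles, squares and diamonds are replicates 1, 2 and 3 and the bar is the mean of the 3 log2 values. In each panel both growth bars are the lowest, while high termination spreads over a wide range, as in ENSGALG00000023818 with 0.409, 0.188 and 17.1 CPM.

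The last test asked whether the fall from initiation to growth differed between the strength groups. The log2 difference, the fall in the high minus the fall in the low strength group, had a median of 0.21 over the 150 genes and −0.0084 over the genes tested. It passed the edgeR test for 0 of the 150 genes, against 1.91% of the genes tested (0.528% higher and 1.38% lower). An unadjusted p below 0.05 was found for 6 of the 150 and for 12.6% of the genes tested, and the smallest adjusted p was 0.159. DESeq2 called 0 of the 148 to which it gave an adjusted p, against 4.93% of the genes tested. All 4 means entered the choice, which asked for a lower level in growth in both strength groups, so these counts are a description. The median standard error was 0.84, so differences of this size were not detectable. Without high termination replicates 2 and 3 the count was 3 and 2 of the 150, against 2.44% and 4.18% of the genes tested, and in the fit to the 4 groups alone it was 5, against 4.81%.

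The genes were not uniform outside growth. Each mean of high initiation, low initiation and low termination was taken with 1 CPM added. The highest of the 3 then exceeded the lowest by a median of 1.40-fold, by at least 2-fold for 27 genes and by at least 4-fold for 7. In CPM without TMM factors, the highest of these 3 means was low termination for 69 genes, high initiation for 47 and low initiation for 34. The means entered the choice, and TMM factors were lower in low termination than in initiation, so this split is a description. Among the 7 uneven genes, those ranked 4, 5, 9 and 19, singled out here after their values were seen, shared a course. Their means were 3.45 to 7.56 CPM in high initiation, 22.0 to 56.1 CPM in low initiation and 5.40 to 19.7 CPM in low termination, and at most 0.798 CPM in growth. In high termination replicate 3, which did not enter the choice, they reached 425, 280, 318 and 114 CPM, while replicates 1 and 2 held between 0.0 and 1.70 CPM. The gene ranked 27 ran the other way, with 56.8 CPM in high initiation, 17.5 CPM in low initiation, 5.67 CPM in low termination and 7.38 CPM in high termination replicate 3.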

How the data were processed

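Uterine RNA was extracted with Trizol and sequenced from TruSeq libraries, per the labels' protocols. Bowtie2, TopHat, TopHat2 and the build galGal4 stand in the submitters' processing notes. How reads were counted, and with which strand setting, is not given in the sources used here; paralogs, overlapping and antisense genes may therefore share reads. The authors deposited counts per gene in a table named as normalized. Its values were treated as counts because 0 were fractional, totals differed between libraries and DESeq2 size factors ran from 0.678 to 1.24, not 1 as after such a scaling. The authors deposited read statistics too, with read counts, the percent of bases at quality 30 or above and the percent of GC, taken here from mate 1.

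CPM was the count divided by the library total and scaled. Group values are the mean ± SD of 3 libraries, and ratios of single libraries or of group means add a pseudocount of 1 CPM. Chi-square values per degree of freedom between libraries of a group (8.60 to 318) exceeded counting noise, so none was taken as deposited again. Floors cover counting error only.

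Loci above 1 CPM in at least 3 libraries were tested with edgeR 4.0.16 (R 4.3.3, limma 3.58.1), its quasi-likelihood test, TMM factors and a mean per group, with Benjamini-Hochberg adjustment within each of 4 comparisons. Standard errors were the log2 difference over the square root of F. Python 3.11.15 and pandas 2.3.3 handled the tables. The test was also run on counts simulated gene by gene with the fitted dispersions. These counts held no shift shared by many genes of 1 library, so nothing is read from that run for these data. Alternatives were DESeq2 1.42.0, no filter on low counts, total-count scaling, the replicate number as a block, leaving out single libraries, and fits to the groups compared. Fits without high termination libraries were added after seeing the data. The members, lists and tests were chosen with earlier results of these data known. Genes named by identifier were the 2 of highest score, the 2 of smallest adjusted p in each direction of a comparison, the highest and lowest in high termination relative to the other groups outside growth, and the 2 most abundant. The 13 gene lists by symbol, the cell type markers and the promoter motifs could not be used without names.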

Additional observations from a re-analysis of the deposited data

How the results depend on the processing

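The choice of genes depended on the pseudocount: with 0.1 and 10 in place of 1, 83 and 86 of the 150 genes were chosen again. TMM-scaled CPM gave 113, group medians 109, no upper limit on abundance 146, and leaving out each library of the choice in turn 111 to 145, the lowest without low initiation replicate 3. The median log2 ratio of high termination replicate 3 to growth, 2.03, became 2.37 with TMM-scaled CPM, and 2.14 and 1.42 with pseudocounts of 0.1 and 10. That of replicate 1 went from −0.0080 to 0.042, −0.0086 and −0.0014, and that of replicate 2 from −0.28 to −0.21, −0.34 and −0.11. In each setting replicate 3 was the highest and replicate 2 the lowest. At initiation, DESeq2 called 8 of the 148 genes to which it gave an adjusted p and 2076 of all genes (12.9%). The fit to both groups alone called 16 of the 150 and 2181 of all genes (14.3%). Without high termination the counts were 16 and 2412 (15.1%). The main fit called 3 and 1284 (7.97%). Single libraries left out gave 0 to 15 of the 150 and 456 to 2482 of all genes (2.85% to 15.4%). In growth the count over the 150 genes was 0 in each setting run. The fit to both growth groups alone gave an adjusted p to 141 of them, and DESeq2 to 148. Over all genes the count was 11 with DESeq2 (0.0683%), 0 in the fit to both groups alone and 2 without high termination, against 1. Without single libraries it was 0 to 2. Between low initiation and low termination, DESeq2 called 13 of the 148 genes to which it gave an adjusted p, against 28.9% of the genes tested. The fit to both groups alone called 21, against 24.4%, and the fit without high termination 56, against 38.5%. The main fit called 8, against 21.0%. All genes called were 6354 with total-count scaling and 6159 without high termination, against 3386. Single libraries left out gave 2 to 54 of the 150 and 1624 to 6324 of all genes (10.2% to 39.4%). For the difference between strength groups in the fall to growth, the fit to the 4 groups alone called 5 of the 150 and 763 of all genes (4.81%). The fit without high termination called 4 and 698 (4.36%), and DESeq2 called 794 of all genes (4.93%). The main fit called 0 and 307 (1.91%). Single libraries left out gave 0 to 3 of the 150 and 110 to 671 of all genes (0.689% to 4.18%). The cause of these shifts was not tested. No gene named for a small adjusted p reversed in its comparison in the settings run. The other named genes were not followed through the settings. With the replicate number as a block, 5 of the 150 genes were called at initiation, against 7.83% of the genes tested. Between low initiation and low termination 11 were called, against 21.7%. For the difference in the fall to growth 0 were called, against 1.77%, and in growth 0, with 0 over all genes as well. The libraries share only a number: deviations of same-numbered libraries correlated between −0.34 and 0.26 at initiation, between −0.21 and 0.21 in growth, and at 0.60, −0.52 and 0.48 between low termination and low initiation. In the main fit the median standard error over the 150 genes was 0.59 to 0.84 in the 4 comparisons, and without high termination it was 0.35 to 0.51. Its part in the number of calls was not tested.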
